A study of Mus musculus with 16 samples.

Results

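The genes described here are the folding, quality-control and stress-sensing machinery of the endoplasmic reticulum (ER), the compartment where secreted and membrane proteins are made. They were taken by name from the deposited count table: 31 genes of the 55573 listed, listed for their known role by a rule that uses no measured value. The list was nonetheless drawn up with earlier results of these data known. Of these, 30 had enough counts to be tested among 13711 genes. Derl3, an ER membrane protein of the degradation pathway, was not tested, with 0.084 to 0.831 CPM (counts scaled to library size) over the 16 libraries.

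RNA was sequenced from OT1 cells, CD8 T cells of the C57BL/6 background whose transgenic receptor recognises ovalbumin. The labels place 4 libraries in each of 4 groups: Foxp3UP and MockUP, which form the UP arm, and Foxp3DN and MockDN, which form the DN arm. Mice bearing a tumour were given mixed Foxp3 and Mock CD8 T cells, and transferred cells were flow-sorted out of the tumour after 5 days by CD8, by CD45.1 and/or CD90.1 and by a dead-cell dye. The meaning of UP and DN, the vector that carried Foxp3, the tumour type and the age of the mice are not spelled out in the labels, so UP and DN are used as names only. The labels also do not say which libraries came from separate mice, so the p-values below measure the spread between these libraries, part of which may be technical. These are bulk libraries, in which fewer cells of a type and less RNA per cell cannot be told apart.

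Proteins enter the ER through the Sec61 translocon, are bound by chaperones such as BiP (encoded by Hspa5) and calnexin (Canx), receive disulfide bonds from the protein disulfide isomerases and, if they stay misfolded, are sent back to the cytosol for ER-associated degradation. The unfolded protein response (UPR) adjusts this capacity through the sensors IRE1 (Ern1), ATF6 (Atf6) and PERK (Eif2ak3). IRE1 splices Xbp1 mRNA into the form that encodes an active transcription factor, and XBP1 and ATF6 induce chaperone and degradation genes. In CD8 T cells this machinery is known to expand with activation, and XBP1 has been studied as a regulator of T cell function in tumours.

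The best known binding site of this response in DNA is the ER stress response element (ERSE), which reads CCAAT, then 9 bases of any kind, then CCACG. A shorter form, ERSE-II, reads ATTGG, 1 base of any kind and CCACG. Both were searched on both strands of a 300-base promoter window, from 250 bases before to 50 bases after the gene start, taken from RefSeq on GRCm38.p6. A window was matched for 25 of the 31 genes. ERSE was found in 9 of the 25 (36%), against 37 of 27025 genes with a window (0.137%). ERSE-II was found in 2 of the 25 (8%), against 12 of 27025 (0.0444%). The core of the XBP1-type element, TGACGTGG, was found in 0 of the 25 genes and in 193 of the 27025 (0.714%). A match is a description of the letters and not evidence of binding. The 31 genes were listed for known roles in ER folding and stress. The ERSE and ERSE-II shares above those of all genes may thus follow from that choice and support no conclusion. The sites below are shown because they mark the chaperone and degradation genes usually described as UPR targets, whose levels are given afterwards. Each is written 5′ to 3′ on the strand of its gene, with the element in capitals and 5 bases on either side.
Hspa5, chr2:34772020-34772048, + strand: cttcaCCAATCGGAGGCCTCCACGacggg
Hsp90b1, chr10:86705633-86705661, − strand: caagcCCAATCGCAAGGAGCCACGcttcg
Canx, chr11:50325795-50325823, − strand: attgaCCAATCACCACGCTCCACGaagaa
Pdia6, chr12:17266486-17266514, + strand: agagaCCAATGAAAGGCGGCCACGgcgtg
Dnajc3, chr14:118937822-118937850, + strand: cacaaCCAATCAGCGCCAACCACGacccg
Syvn1, chr19:6046527-6046555, + strand: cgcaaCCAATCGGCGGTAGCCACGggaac
Calr, chr8:84847070-84847098, − strand, element reversed: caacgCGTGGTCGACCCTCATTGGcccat
Creld2, chr15:88819515-88819543, + strand, element reversed: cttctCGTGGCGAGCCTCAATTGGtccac
Herpud1, chr8:94386372-94386392, + strand, ERSE-II: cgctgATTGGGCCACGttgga

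In the ERSE sites the outer blocks are the same letters by construction, and the 9 bases between them differ from gene to gene. The Hspa5 site began 65 bases before the gene start, the Syvn1 site 44 and the Canx site 145. Hsp90b1 held another, reversed copy 107 bases before its start. Derl3 also held a reversed ERSE, although its transcript was close to absent in these cells, and Dnajb11 held an ERSE-II at its start. Xbp1, Pdia3, Pdia4, Edem2 and Spcs2, which recur below, held neither element in the window searched.

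Library totals ran from 9389477 to 13226590 counts, with 19847 to 20763 genes detected. Foxp3, the transcription factor that defines regulatory T cells, was at 15.2, 21, 29.5 and 28.7 CPM in Foxp3UP against 11.5, 13, 13.7 and 11.5 in MockUP, a log2 fold change of 0.92 ± 0.17 (SE; adjusted p = 0.00233 by edgeR). It was at 10.3, 10.1, 10.4 and 10.2 CPM in Foxp3DN and at 12.6, 13.4, 11 and 14.6 in MockDN (−0.33 ± 0.17, adjusted p = 1), so the libraries labelled Foxp3DN did not hold more Foxp3 RNA than their controls. The 8 markers of CD8 T cells were present in every library, and their summed level was 4570 to 8120 CPM. MockUP 2 and Foxp3UP 1 stood apart in these genes. MockUP 2 was the highest of the 16 libraries for 6 of the 30 tested genes and the lowest for 11, and Foxp3UP 1 was the highest for 10 and the lowest for 5, among them several genes described below. For many genes that either moves much, the value without it follows.

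The 31 genes took 0.85% ± 0.0409 of all counts for Foxp3UP and 0.893% ± 0.0346 for MockUP (mean ± SD, n = 4 each). The shares were 0.901% ± 0.0358 for Foxp3DN and 0.908% ± 0.0391 for MockDN. By replicate number they were 0.903%, 0.852%, 0.842% and 0.803% in Foxp3UP and 0.934%, 0.903%, 0.883% and 0.852% in MockUP. The UP groups overlapped, while each Foxp3UP library was below the MockUP library of its number. In the DN arm 1 of the 4 Foxp3 libraries was above its number. The median SD between libraries of a group was 0.18 on the log2 scale over these genes and 0.25 over all genes tested. On a scale of CPM per kb of exon, which allows genes to be compared, BiP led. Hspa5 averaged 591 CPM per kb over the 16 libraries, above 99.5% of the genes tested. Next came Pdia3, the oxidoreductase that works with calnexin and calreticulin, at 238, calreticulin itself (Calr) at 227, and P4hb, the classic disulfide isomerase, at 217. Xbp1 stood at 71.8 CPM per kb, above 94.2% of the genes tested. The sensors were lower, Atf6 at 8.81 and Ern1 at 1.67 CPM per kb, so the mRNA of the endonuclease IRE1 was below most genes tested. Hyou1, a large exchange factor for BiP, was also modest at 8.79.

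**Figure D1:**
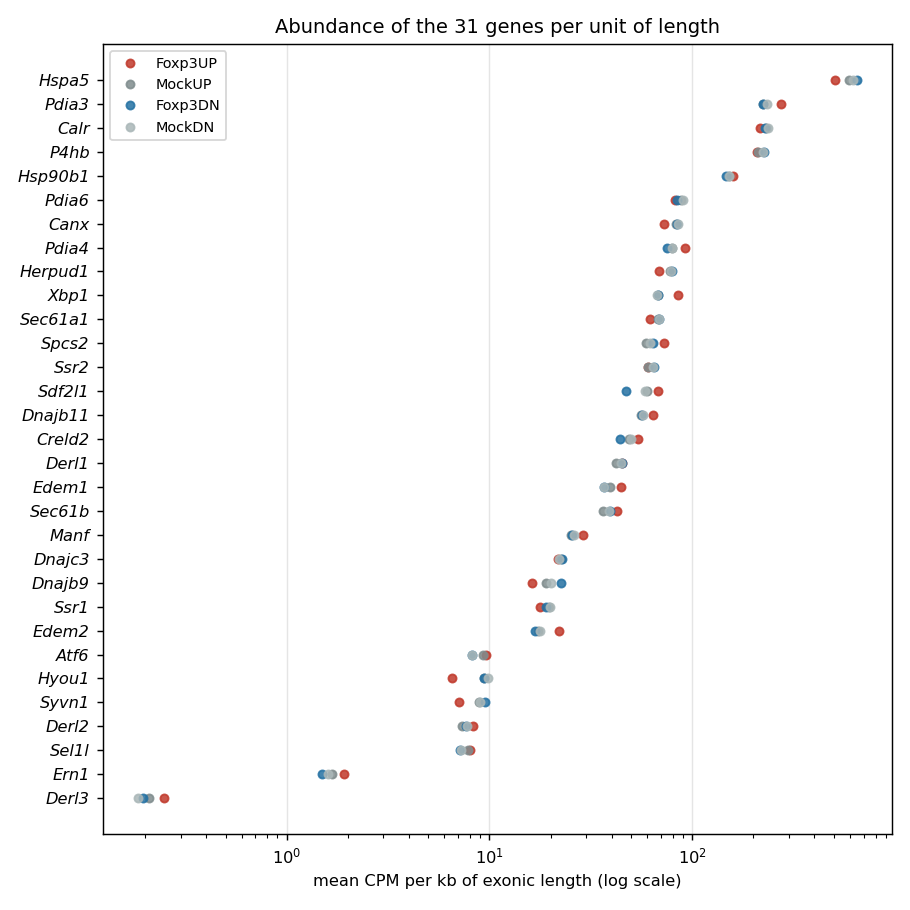
Mean CPM per kb of exon (log axis) of the 31 genes in each of the 4 groups, ordered by level. Hspa5 averaged 591 and Derl3 0.21 over all libraries, and for nearly every gene the 4 groups lie close together compared with the distance between genes.

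Foxp3UP was compared with MockUP to ask how the folding machinery differed between Foxp3 and control cells of the UP arm. Xbp1 rose by 1.25-fold, the only one of the 30 tested genes to pass. The chaperones Hspa5, Hyou1, Calr and Canx had lower mean values, and the oxidoreductases Pdia3 and Pdia4 and the degradation factor Edem2 higher ones, but none of these passed. The count of 1 gene higher and 0 lower is 3.33% of those tested, against 12.1% of all genes (6.08% higher, 5.99% lower). At an unadjusted p under 0.05 there were 7 of 30 (23.3%), against 26.7% of all genes, and DESeq2 called 3 of 30 (10%), against 14.9%. None of these 3 shares is above the background, and the median log2 fold change was 0.05, against 0 over all genes.

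Xbp1 encodes the transcription factor that IRE1 activates. Its gene lies at chr11:5520659-5525893 on mm10. Its level was 250, 274, 273 and 304 CPM in the Foxp3UP libraries and 207, 209, 235 and 231 in MockUP. All 4 Foxp3UP libraries lay above all 4 MockUP libraries. The log2 fold change was 0.32 ± 0.09 (SE; 95% interval 0.12 to 0.52; edgeR adjusted p = 0.0306). The call was lost in 4 of the 8 fits that left out 1 library, with adjusted p = 0.0622 without Foxp3UP 2, 0.0566 without Foxp3UP 3, 0.102 without Foxp3UP 4 and 0.0584 without MockUP 1, while the value stayed between 0.27 and 0.35. Gene counts do not separate spliced from unspliced Xbp1 mRNA, so the value says nothing of how much was in the active form.

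Same-numbered Foxp3 and Mock libraries of an arm deviated together, so a block for each such pair was added in another fit. With the block, 9 of 30 genes passed (30%), against 25.3% of all genes (13.3% higher, 12% lower), a share near the background. Higher were Xbp1, Pdia3, Pdia4, Dnajb11, Edem2 and Spcs2, and lower were Hspa5, Hyou1 and Canx. Leaving out each pair of UP libraries in turn, an alternative added after the data were seen, gave between 6 and 14 of these calls: 6 without pair 1 (20%, against 18.3% of all genes), 14 without pair 2 (46.7%, against 30.3%), 9 without pair 3 (30%, against 21.3%) and 6 without pair 4 (20%, against 19.8%). Xbp1, Pdia3 and Edem2 were called higher and Hspa5 lower in each of these 4 fits.

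**Figure D2:**
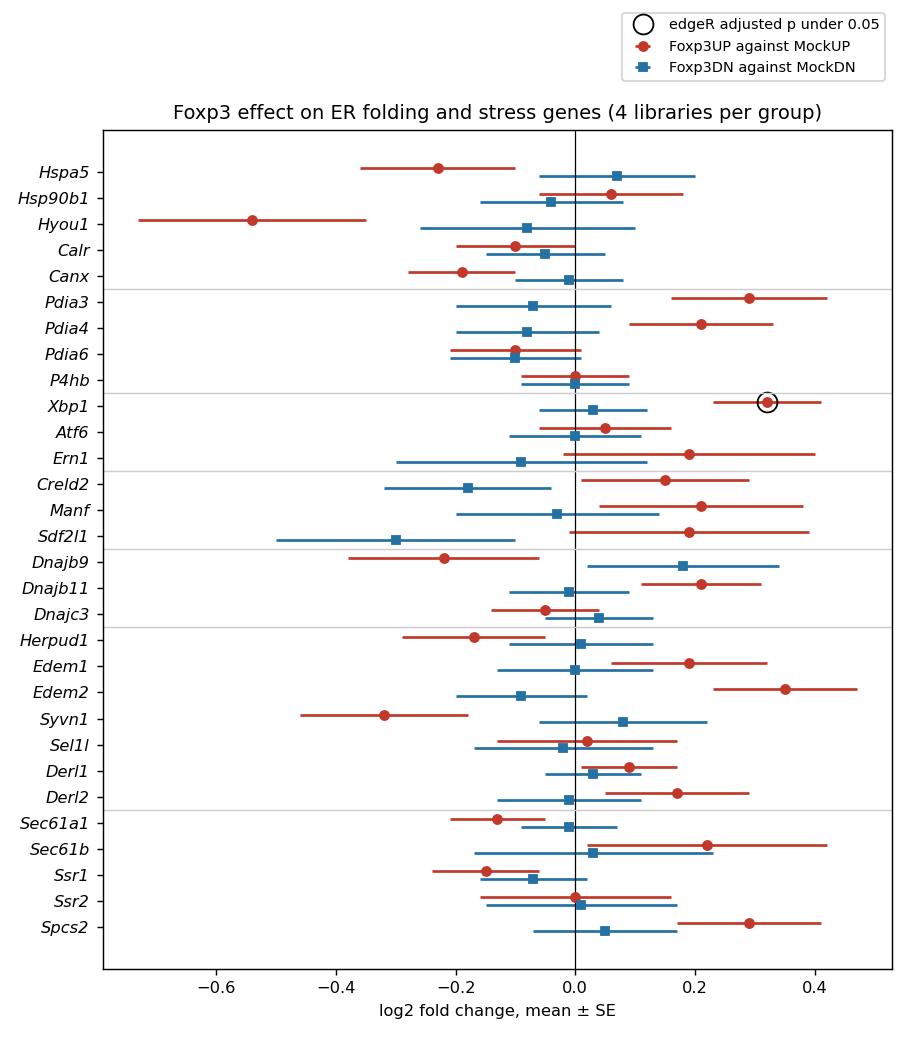
Log2 fold change (± SE) of the 30 tested genes for Foxp3UP against MockUP and for Foxp3DN against MockDN, in the plain fit; a circle marks an adjusted p under 0.05. Only Xbp1 in the UP arm carries a circle; UP values run from −0.54 to 0.35 and DN values from −0.30 to 0.18.

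Among the 5 chaperones, 4 had lower and 1 a higher mean in Foxp3UP, with a median log2 fold change of −0.19. Hspa5, the most abundant of the whole set, was at 1890, 2070, 2360 and 2240 CPM in Foxp3UP and at 2170, 2410, 2830 and 2630 in MockUP. The groups overlapped, but each Foxp3UP library was below the MockUP library of its own number, by −0.2, −0.22, −0.26 and −0.23 on the log2 scale. The plain fit gave −0.23 ± 0.13 (95% interval −0.51 to 0.05; adjusted p = 0.269) and the block fit −0.23 ± 0.05 (adjusted p = 0.00674). The 2 fits thus agree on the size of the Hspa5 difference, and differ only in the spread it is set against.

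Canx, the membrane-bound lectin chaperone calnexin, behaved the same way at a smaller size. It was at 378, 358, 328 and 304 CPM in Foxp3UP and 429, 406, 360 and 360 in MockUP, and all 4 pairs were lower, by −0.18, −0.18, −0.14 and −0.24. Its log2 fold change was −0.19 ± 0.09 (adjusted p = 0.197), and −0.19 ± 0.05 (adjusted p = 0.0229) with the block. The block call for Canx was lost without pair 1 (adjusted p = 0.0746) and without pair 4 (0.0881).

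Hyou1 had the lowest value of the set. It was at 42.8, 48.2, 52.1 and 44.8 CPM in Foxp3UP and at 57.7, 105, 53.7 and 55.8 in MockUP. The groups did not overlap, and MockUP 2 stood far above the other 3 control libraries. The log2 fold change was −0.54 ± 0.19 (95% interval −0.94 to −0.13; adjusted p = 0.0728) with all libraries and −0.25 (adjusted p = 0.213) without MockUP 2. With the block it was −0.49 ± 0.14 (adjusted p = 0.0259), and −0.27 (adjusted p = 0.0226) without pair 2. Size and plain-fit evidence for Hyou1 therefore rested on that library, while the direction held in all 4 pairs (−0.43, −1.12, −0.04 and −0.31).

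The other 2 chaperones stayed within their spread. Calr, the soluble partner of calnexin, was at 653, 617, 659 and 544 CPM in Foxp3UP and 691, 721, 616 and 617 in MockUP (−0.10 ± 0.10, adjusted p = 0.568). Hsp90b1, the ER form of HSP90 that folds integrins and Toll-like receptors, was at 746, 662, 582 and 550 CPM against 770, 588, 555 and 525 (0.06 ± 0.12, adjusted p = 0.807). In each group its mean was higher over replicates 1 and 2 than over 3 and 4. Reads of the antisense gene 1810014B01Rik, which overlaps Hsp90b1, could have been shared with it, since how strand was used is unknown.

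The disulfide isomerases split. Pdia3 was at 1060, 808, 802 and 749 CPM in Foxp3UP and at 879, 619, 682 and 631 in MockUP. The groups overlapped through MockUP 1, while each pair was higher in Foxp3UP, by 0.28, 0.39, 0.23 and 0.25. The plain fit gave 0.29 ± 0.13 (adjusted p = 0.175) and the block fit 0.29 ± 0.06 (adjusted p = 0.00341). Without MockUP 1 the plain Pdia3 value was 0.41 (adjusted p = 0.0412), and without Foxp3UP 1, its highest library, it was 0.15 (adjusted p = 0.533).

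Pdia4, an isomerase with several thioredoxin-like domains, was at 258, 218, 204 and 200 CPM in Foxp3UP and 236, 185, 175 and 166 in MockUP. It too was higher in every pair, with 0.21 ± 0.12 (adjusted p = 0.274) in the plain fit and 0.21 ± 0.06 (adjusted p = 0.015) with the block. The plain Pdia4 value was 0.11 (adjusted p = 0.655) without Foxp3UP 1 and 0.33 (adjusted p = 0.0643) without MockUP 1. The block call was lost without pair 3 (adjusted p = 0.0572) and without pair 4 (0.0615). P4hb was at 658, 635, 557 and 544 CPM against 601, 605, 616 and 577, and its difference was 0 ± 0.09 (95% interval −0.2 to 0.2). Pdia6, an isomerase that limits IRE1 signalling, had a difference of −0.10 ± 0.11. In the block fit without pair 2 the Pdia6 value was −0.18 (adjusted p = 0.0196). The isomerase family thus did not shift as one.

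**Figure D3:**
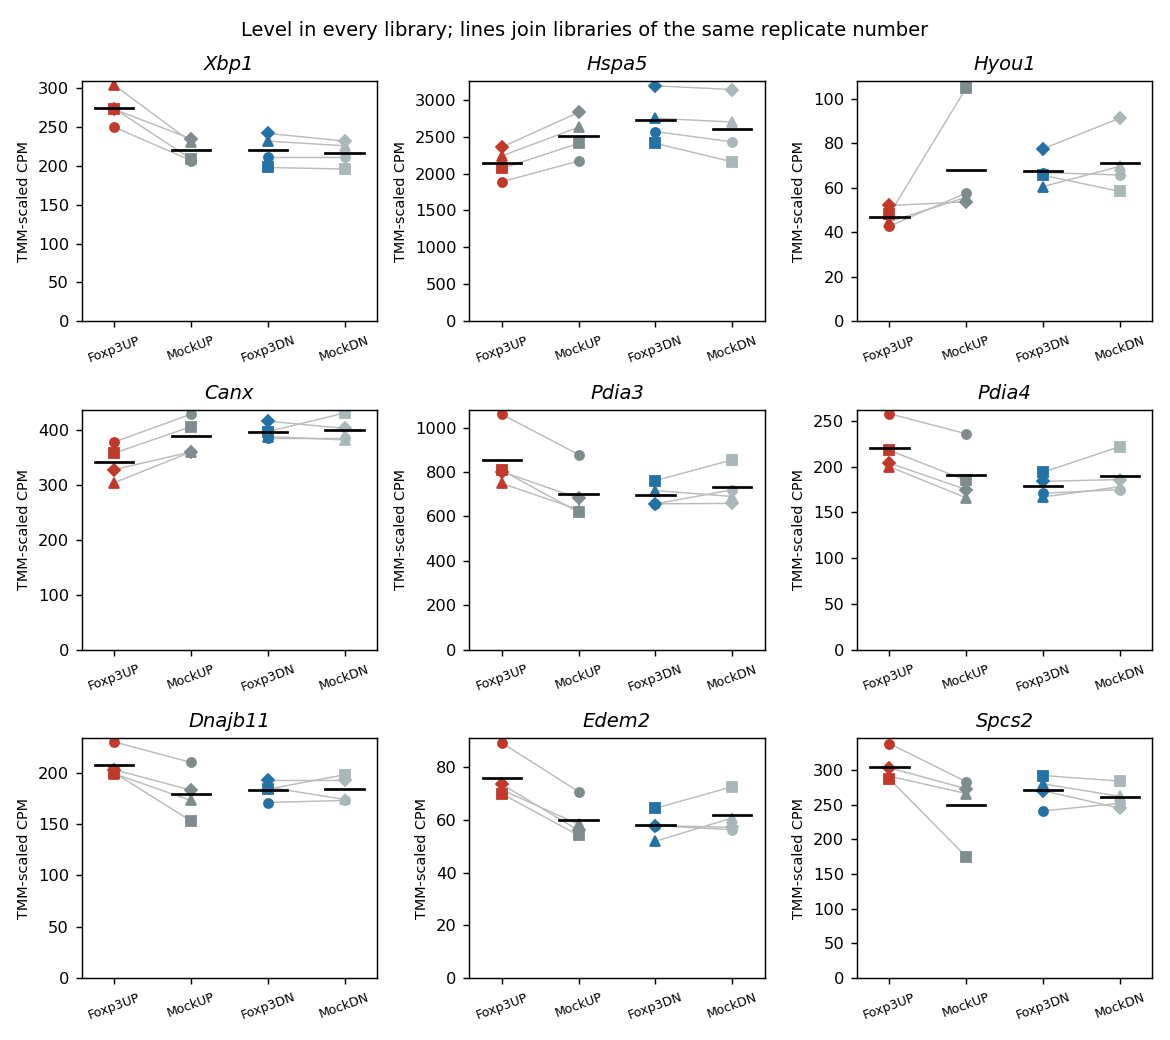
TMM-scaled CPM of 9 genes in each of the 16 libraries by group; marker shapes give the replicate number, lines join same-numbered Foxp3 and Mock libraries of an arm, and the black bar is the group mean. In the UP arm all 4 lines of Xbp1, Pdia3, Pdia4 and Edem2 are higher at Foxp3UP and all 4 of Hspa5, Canx and Hyou1 lower, and the DN lines of Xbp1 are nearly level; MockUP 2 is the high point of Hyou1 and the low point of Spcs2.

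The sensors Atf6 and Ern1 differed by less than the spread between libraries. Atf6, the membrane-bound transcription factor cut in the Golgi, was at 84.9, 92, 87.1 and 90.8 CPM in Foxp3UP and 70.1, 112, 78.8 and 82.5 in MockUP (0.05 ± 0.11, adjusted p = 0.826). Here Foxp3UP lay above 3 of the 4 MockUP libraries and below MockUP 2; with the block and without pair 2 the value was 0.18 (adjusted p = 0.0441). Ern1, which encodes IRE1, was at 12, 18.4, 16.1 and 15.8 CPM against 10.6, 20.1, 12.6 and 11.2 (0.19 ± 0.21, adjusted p = 0.618), again with MockUP 2 as the highest. Without MockUP 2 the values were 0.20 (adjusted p = 0.08) for Atf6 and 0.44 (adjusted p = 0.138) for Ern1.

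The 3 small ER stress-induced factors Creld2, Manf and Sdf2l1 had positive values that did not pass, at 0.15 ± 0.14, 0.21 ± 0.17 and 0.19 ± 0.2. Sdf2l1, which binds BiP complexes, ranged from 60.8 to 102 CPM in Foxp3UP and from 44.6 to 93 in MockUP. The secreted factor Manf was at 112, 98.5, 97 and 102 CPM against 104, 50.3, 97.7 and 102, so only MockUP 2 lay away from the rest. Without MockUP 2 the values were 0.01 for Manf, 0.06 for Creld2 and 0.03 for Sdf2l1, and without Foxp3UP 1 they were 0.15 for Manf and 0 for Creld2 and Sdf2l1. The positive values of this group thus rested on those libraries. Counts of Manf are uncertain because Dcaf1 and Rbm15b overlap it.

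Of the J-domain co-chaperones, which hand clients to BiP, Dnajb11 was at 230, 200, 203 and 199 CPM in Foxp3UP and 210, 153, 183 and 173 in MockUP. It was higher in every pair, with 0.21 ± 0.1 (adjusted p = 0.174) in the plain fit and 0.22 ± 0.06 (adjusted p = 0.0224) with the block. The plain Dnajb11 value was 0.13 (adjusted p = 0.379) without MockUP 2 and 0.15 (adjusted p = 0.441) without Foxp3UP 1. Without pair 4 the block value missed the threshold (adjusted p = 0.0593). Dnajb9, a repressor of IRE1, was lower at −0.22 ± 0.16, and Dnajc3 was at −0.05 ± 0.09; neither passed.

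Among the 7 tested degradation genes, 5 had positive and 2 negative values. Edem2, which starts mannose trimming of misfolded glycoproteins, was at 89.2, 69.9, 73.5 and 71.4 CPM in Foxp3UP and 70.7, 54.1, 56 and 58.3 in MockUP. Foxp3UP 2 lay just under MockUP 1, and the other 3 Foxp3UP libraries lay above all MockUP libraries. The log2 fold change was 0.35 ± 0.12 (adjusted p = 0.0591), 0.35 ± 0.07 (adjusted p = 0.00301) with the block, and DESeq2 gave adjusted p = 0.049. Its pairs differed by 0.33, 0.37, 0.39 and 0.29. The plain Edem2 value was 0.25 (adjusted p = 0.226) without Foxp3UP 1.

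The related Edem1 had a smaller value in the same direction that turned on MockUP 2. It was at 304, 302, 278 and 265 CPM in Foxp3UP and 258, 328, 215 and 207 in MockUP. With all libraries the difference was 0.19 ± 0.13 (adjusted p = 0.378), and without MockUP 2 it was 0.34 (adjusted p = 0.0464). It was 0.11 without MockUP 3 and 0.10 without MockUP 4. Without pair 2 the block fit gave 0.31 (adjusted p = 6.68e-05). The other degradation genes did not pass in the plain or block fit. Herpud1, a small membrane scaffold of the degradation complex, was at 149, 155, 164 and 175 CPM against 160, 166, 201 and 195 (−0.17 ± 0.12, adjusted p = 0.427). Syvn1, the ubiquitin ligase HRD1 of that complex, was at 35.3, 36, 36.5 and 29.8 against 42.3, 53.9, 40.8 and 35.5 (−0.32 ± 0.14, adjusted p = 0.155), and Mrpl49 overlaps it. Derl1, which helps move substrates out of the ER, was at 155, 147, 150 and 144 CPM against 144, 140, 141 and 137. Its groups met without overlapping, and the difference was 0.09 ± 0.08 (adjusted p = 0.493). Sel1l, the partner of HRD1, was at 0.02 ± 0.15 and Derl2, which Mis12 overlaps, at 0.17 ± 0.12. Without MockUP 2 they were at 0.18 and 0.03, and Syvn1 at −0.20. The block fit without pair 2 called Herpud1 lower, at −0.19 (adjusted p = 0.0126).

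The translocon genes centred on 0. Sec61a1, the pore-forming subunit, was at 409, 429, 419 and 413 CPM in Foxp3UP and 421, 498, 459 and 452 in MockUP (−0.13 ± 0.08, adjusted p = 0.317). Spcs2, a subunit of the signal peptidase, was at 338, 287, 303 and 291 against 283, 175, 273 and 266, without overlap. Its value was 0.29 ± 0.12 (adjusted p = 0.141) with all libraries and 0.15 (adjusted p = 0.29) without MockUP 2, and 0.31 ± 0.09 (adjusted p = 0.0201) with the block. Without pair 2 the block value of Spcs2 was 0.17 (adjusted p = 0.0178). The remaining subunits did not pass: Sec61b was at 0.22 ± 0.2, and the signal sequence receptors Ssr1 and Ssr2 at −0.15 ± 0.09 and 0 ± 0.16. Sec61b and Ssr2 were both lowest in MockUP 2, at 22.6 and 65.7 CPM, and without it their values were −0.01 and −0.19. Counting all 30 genes, 3 lay higher and 1 lower without overlap (Xbp1, Derl1 and Spcs2 higher, Hyou1 lower), against 8.61% and 7.29% of all genes.

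All 4 UP pairs moved the same way for 14 of the 30 genes, 7 higher and 7 lower (46.7%, against 39.3% of all genes). In the DN arm this held for 7 genes, 2 higher and 5 lower (23.3%, against 16.6%). The gap to all genes was not tested.

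When the 11 genes with an ERSE or ERSE-II were set beside the 14 with a window but neither element, a grouping made after the values had been seen and therefore not tested, the former had a median UP log2 fold change of −0.10 (3 positive, 7 negative of 10 tested) and the latter 0.19 (11 positive, 2 negative of 14). With the block, 1 gene with an element was called higher (Dnajb11) and 2 lower (Hspa5 and Canx). Of those with neither, 5 were called higher (Xbp1, Pdia3, Pdia4, Edem2 and Spcs2) and 0 lower. Over all genes tested the block called 13.3% higher and 12% lower. Hyou1 had no window.

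Foxp3DN was compared with MockDN as the same contrast in the DN arm. None of the 30 genes was called (0.00729% of all genes were, or 1 of 13711), none had an unadjusted p under 0.05 (1.04% of all genes), DESeq2 called 0, and for none did the groups stand apart (1.15% of all genes). Values ran from −0.30 ± 0.20 for Sdf2l1 to 0.18 ± 0.16 for Dnajb9, each with an adjusted p of 1, and the median was −0.01. Xbp1 was at 211, 198, 242 and 232 CPM in Foxp3DN and 211, 196, 232 and 226 in MockDN. These pairs were nearly equal, and the difference was 0.03 ± 0.09 (95% interval −0.17 to 0.23). Hspa5 was at 2570, 2410, 3190 and 2750 against 2430, 2160, 3140 and 2700 (0.07 ± 0.13), with the replicates of a number moving together across a much wider range than the groups differed. Hyou1 was at 66.9, 65.7, 77.6 and 60.6 CPM against 65.8, 58.4, 91.4 and 69.7 (−0.08 ± 0.18; 95% interval −0.48 to 0.33), so that a difference of the size seen in the UP arm without MockUP 2 lies within its interval.

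The Foxp3 effects of the 2 arms were then set against each other directly. No ER folding gene was called (1.83% of all genes were), and 2 of 30 had an unadjusted p under 0.05 (6.67%, against 15.6%). DESeq2 called 0 (4.75% of all genes). For Xbp1 the effect was larger in the UP arm by 0.29 ± 0.13 (adjusted p = 0.284), so its call in the UP arm and not in the DN arm is not a tested difference between the arms in this fit. For Edem2 it was larger by 0.43 ± 0.16 (adjusted p = 0.188) and for Pdia3 by 0.35 ± 0.19 (adjusted p = 0.378). With the block, 5 genes passed (16.7%, against 12.7% of all genes, 6.53% higher and 6.16% lower): Pdia3 at 0.35 (adjusted p = 0.0153), Pdia4 at 0.29 (0.0296), Xbp1 at 0.29 (0.0288) and Edem2 at 0.43 (0.0124) were higher in the UP arm, and Hspa5 at −0.30 (0.0187) was lower. Leaving out UP pair 1, 2, 3 or 4 gave 4, 8, 5 and 3 calls, against 9.53%, 22%, 10.4% and 9.62% of all genes, and Pdia3, Edem2 and Hspa5 were among them each time. In the 4 DN pairs Hspa5 was higher in the Foxp3 library by 0.08, 0.16, 0.02 and 0.02.

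MockUP was compared with MockDN to see whether the control cells of the arms differed. None of the 30 genes was called (0.00729% of all genes were) or had an unadjusted p under 0.05 (3.16% of all genes), DESeq2 called 0 (0.0438% of all genes), and none lay without overlap (1.85%). Values ran from −0.10 to 0.19 with a median of −0.04, and 21 of 30 were negative. The highest was Atf6 at 0.19 ± 0.11 (95% interval −0.05 to 0.42), for which MockUP 2 at 112 CPM was the highest library of all. Xbp1 differed by 0.03 ± 0.09 (95% interval −0.17 to 0.23) and Hspa5 by −0.06 ± 0.13 (95% interval −0.34 to 0.22). No difference between the control groups was detectable in these genes at this spread.

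Many of these genes also differed between sets of replicates. Replicates 1 and 2 of all groups carry the lower sample numbers in the titles, and replicates 3 and 4 the higher ones. Hspa5 was lower in replicates 1 and 2 than in 3 and 4 by −0.22, −0.25, −0.25 and −0.34 on the log2 scale in Foxp3UP, MockUP, Foxp3DN and MockDN. Herpud1 followed at −0.15, −0.28, −0.32 and −0.4, and Xbp1 at −0.14, −0.16, −0.21 and −0.17. Pdia3 went the other way at 0.26, 0.17, 0.04 and 0.22, as did Edem2 at 0.12, 0.11, 0.15 and 0.12. In all, 5 genes were lower and 7 higher in replicates 1 and 2 in all 4 groups (40%, against 41.5% of all genes). What these sets of libraries share is not given in the labels. Within replicates 1 and 2 the Xbp1 difference between Foxp3UP and MockUP was 0.33 (adjusted p = 0.049), and within replicates 3 and 4 it was 0.31 (adjusted p = 0.0683). Hyou1 was at −0.84 (adjusted p = 0.0317) within the first set, which holds MockUP 2, and at −0.17 (adjusted p = 0.697) within the second.

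**Figure D4:**
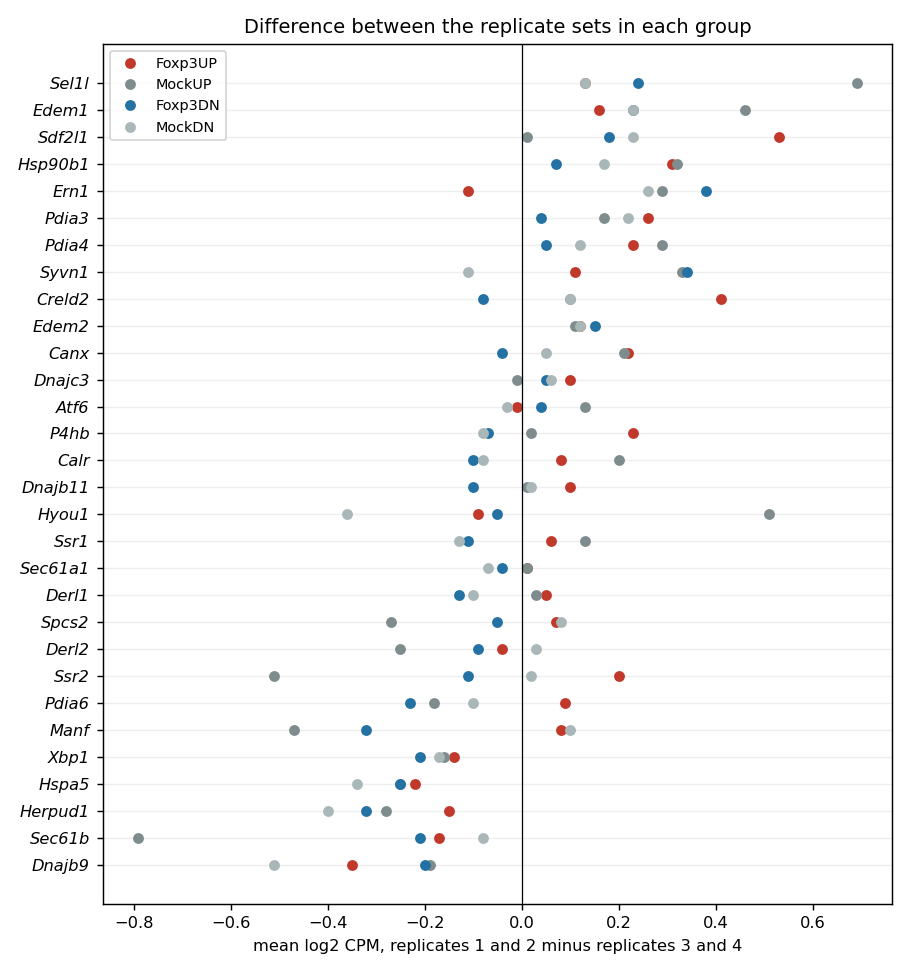
Mean log2 CPM of replicates 1 and 2 minus that of replicates 3 and 4 for the 30 tested genes, 1 point per group. The 4 groups lie on the same side of 0 for 12 genes, with Hspa5 and Herpud1 lower and Pdia3 and Edem2 higher in replicates 1 and 2 in every group.

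Other genes of the ER pathway, from 99 listed genes of which 95 were tested, gave 6 higher and 3 lower in Foxp3UP (9.47%, against 12.1% of all genes), with a median of 0.03. Of the 3 that fell, 2 act on N-glycans. Mogs, the glucosidase that starts N-glycan trimming, fell from 124, 128, 123 and 133 CPM in MockUP to 86.5, 86.5, 87.4 and 93.1 in Foxp3UP (−0.52, adjusted p = 0.00453). Stt3b, a catalytic subunit of oligosaccharyltransferase, fell from 186, 223, 158 and 159 to 136, 141, 112 and 123 (−0.50, adjusted p = 0.00637). Neither pair of groups overlapped, and both calls were kept in all 8 fits that left out 1 library. Sec63, a J-domain partner of the translocon, fell by 0.29 on the log2 scale (adjusted p = 0.0195), with the call lost in 3 of those 8 fits.

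The 6 that rose came from several branches of the pathway. Kdelr1, the receptor that returns escaped chaperones from the Golgi, was at 32.3, 26.9, 24.7 and 24.5 CPM in Foxp3UP and 19, 18.4, 18.4 and 18.5 in MockUP (0.55, adjusted p = 0.00901), a call kept in all 8 fits. Sec11c, a catalytic subunit of the signal peptidase, was at 248, 215, 241 and 255 against 201, 116, 180 and 185 (0.49, adjusted p = 0.0305), and Creb3, an ER-anchored transcription factor, was at 61.2, 50, 61.3 and 48.3 against 44.8, 30.8, 44.5 and 37.7 (0.48, adjusted p = 0.0155). Both were lowest in MockUP 2, and without it Sec11c was at 0.34 (adjusted p = 0.0429) and Creb3 at 0.38 (adjusted p = 0.0273). Dnajc1 (0.38, adjusted p = 0.0207), Os9, a lectin of the degradation pathway (0.35, adjusted p = 0.0474), and Tram1 (0.28, adjusted p = 0.0444) rose as well. Calls were lost in 2 of 8 fits for Creb3, in 4 each for Sec11c and Dnajc1, and in 7 each for Os9 and Tram1. Over the 8 fits the list gave 1 to 7 higher, with 1 without Foxp3UP 1 and 7 without MockUP 1, and 2 to 4 lower. Without MockUP 2 it gave 4 higher and 3 lower, and with library totals in place of TMM scaling it gave 3 higher and 6 lower; in both the median was −0.02. With the block it gave 12 higher and 12 lower (25.3%, as in all genes), and 6 higher and 4 lower in the difference of effects (10.5%, against 12.7%).

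The PERK arm, whose kinase slows translation and whose factors ATF4 and CHOP direct the stress programme, showed no called gene among 9 tested (1 at an unadjusted p under 0.05, or 11.1%, against 26.7% of all genes, and 0 by DESeq2). Eif2ak3 was at 0.04 ± 0.19, Atf4 at −0.20 ± 0.17 and Ddit3, which encodes CHOP, at 0.31 ± 0.23. The median was −0.16. With the block, Ppp1r15b, Atf3 and Sesn2 were called lower, 3 of 9 against 12% of all genes called lower and 25.3% called in all. Atf4 and Ddit3 were each called in 1 of the 4 block fits without a UP pair. Atf4 was at −0.30 (adjusted p = 0.000174) without pair 2. Ddit3 was at 0.46 (adjusted p = 0.0499) without pair 1 and at 0.13 (0.301) without pair 2. Over the plain fits that left out 1 library, Eif2ak3 ran from −0.09 to 0.30. In the DN arm and between the Mock groups 0 of the 95 genes were called (0 and 1 of the 95 at an unadjusted p under 0.05, against 1.04% and 3.16% of all genes). In the difference of effects 0 were called (8 at an unadjusted p under 0.05, or 8.42%, against 15.6% of all genes); DESeq2 called Mogs lower in the difference and no other gene of the list there.

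Chaperones outside the ER, listed for comparison, had lower values throughout. All 16 listed chaperones of the cytosol and mitochondria had negative values in Foxp3UP against MockUP, with a median of −0.33, and 6 fell (37.5%, against 5.99% of all genes called lower), while 0 rose. This list was chosen with earlier results of these data known, so its share above that of all genes is a description only. Hspa9, the mitochondrial HSP70 that also matures iron-sulfur proteins, fell from 440, 471, 503 and 513 CPM to 308, 329, 316 and 335 (−0.58 ± 0.1, adjusted p = 0.00167). Hspd1, the mitochondrial chaperonin HSP60, fell from 520, 496, 592 and 602 to 372, 396, 370 and 371 (−0.55 ± 0.11, adjusted p = 0.00489). In both genes every Foxp3UP library lay below every MockUP library. Cct3, a subunit of the cytosolic chaperonin, fell from 477, 455, 599 and 619 to 355, 351, 394 and 403 (−0.52 ± 0.13, adjusted p = 0.0155). The other called genes were Cct5, Cct8 and Hsp90ab1, named after their values were seen. Processed pseudogenes of several of these genes could share their reads, so single values are uncertain.

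The count of cytosolic and mitochondrial chaperones that fell was 3 without MockUP 3 or without MockUP 4 (4.67% and 5.05% of all genes called lower). It was 9 without MockUP 2 (6.97% of all genes called lower) and 9 with library totals (7.88%). It was 7 with DESeq2 (7.64%) and 13 with the block (12%). In the DN arm 14 of these 16 genes had positive values, the median was 0.03 and 0 were called. Hspa9 was the one whose effect differed between the arms in the plain fit (−0.59 ± 0.15, adjusted p = 0.048), a call lost in 11 of the 16 fits that left out 1 library. With the block its adjusted p was 0.000615, and 9 of the 16 genes were called lower in that difference, against 6.16% of all genes. Whether this list differs from the ER set was not tested, and the medians are given as descriptions: −0.33 for these 16 genes, −0.19 for the 5 ER chaperones and 0.05 for all 30 ER genes.

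**Figure D5:**
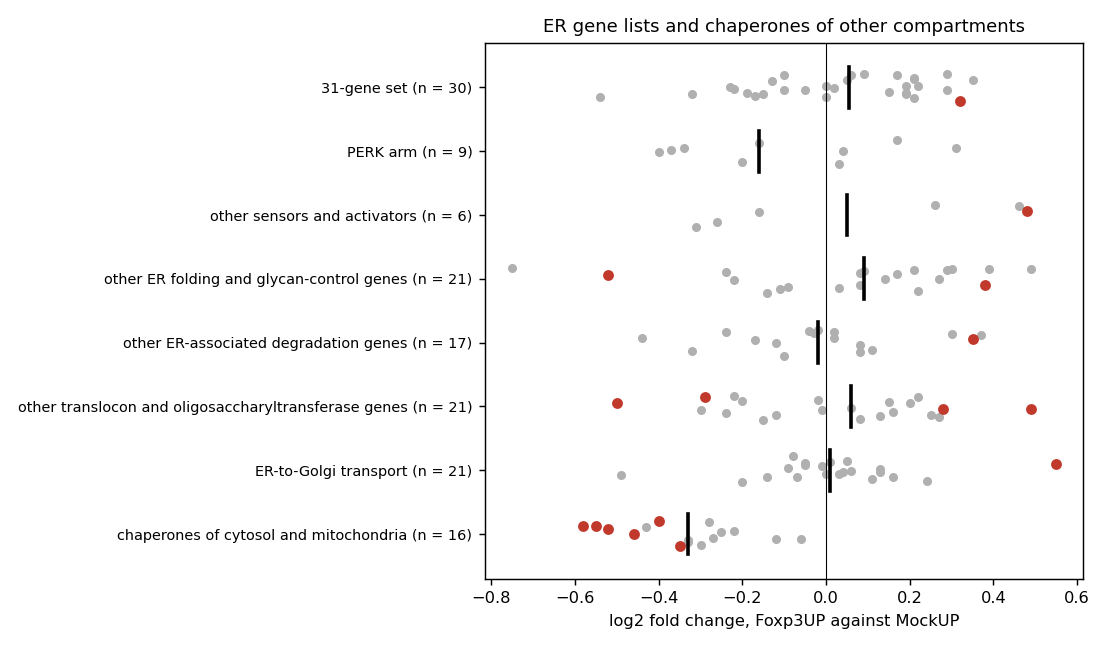
Log2 fold change of Foxp3UP against MockUP for each gene of the ER role groups, the further ER lists and the chaperones of the cytosol and mitochondria; red points were called and the black bar is the median of a list. The cytosolic and mitochondrial chaperones lie below 0 throughout, whereas the ER lists spread to both sides.

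Marker lists were measured beside these results. All 8 CD8 T cell markers had positive values in Foxp3UP against MockUP (median 0.24). The 1 called (12.5%, against 12.1% of all genes) was Cd2 at 0.61 (adjusted p = 0.0214). Cd40lg, a CD4 T cell marker, was at 8.19, 7.98, 7.52 and 4.01 CPM against 10.9, 19.6, 20.8 and 14.4, and fell by 1.23 on the log2 scale (adjusted p = 0.0014); the effects of the arms differed by −1.34 (adjusted p = 0.0264). The 10 markers of B and plasma cells, cells with a large ER, summed to 289 to 362 CPM in Foxp3UP and 138 to 210 in MockUP, with 172 to 211 in Foxp3DN and 176 to 204 in MockDN. Of the 4 tested, 3 had positive values and 1 a negative one (−0.43), and 1 was called (25%, against 12.1% of all genes). This was Ighm, at 285, 277, 338 and 351 CPM against 171, 126, 201 and 195 (0.85, adjusted p = 0.000741). The defining markers Ms4a1, Mzb1 and Tnfrsf17 were at 0 in all 16 libraries. Markers of macrophages and monocytes summed to 58.6 to 80.9 CPM in Foxp3UP and 45.5 to 62.1 in MockUP. Of the 9 tested, 7 had positive and 2 negative values, from −0.40 to 1.07. The 1 called (11.1%, against 12.1% of all genes) was Cd68 at 0.86 (adjusted p = 0.00207). Those of melanocytes summed to 61.7 to 143 and 63.1 to 94.3, and those of fibroblasts to 1.32 to 8.14 and 0.285 to 2.7, with 0 of 5 and 0 of 1 tested called. Melanocyte markers summed to 36.2 to 81.2 CPM in Foxp3DN and 22.8 to 72.9 in MockDN. All 5 had positive values in MockUP against MockDN, with a median of 0.83. Of these, 3 had an unadjusted edgeR p under 0.05 (60%, against 3.16% of all genes), and 0 were called. The part of these transcripts in the values of the ER genes was not tested.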

How the data were processed

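Counts of reads per gene were deposited by the authors as 1 table with 1 column per library and each gene's coordinates and exon length. Per the submitters' processing notes, STAR 2.6.1, Subread 1.6.3 and mm10 were used. Read assignment, strand handling and annotation release, not given in the sources used here, could let overlapping genes share reads (Hsp90b1, Manf, Syvn1, Derl2 and Sec61a1). Symbols came from GENCODE M21, which held 55394 of the 55573 identifiers. The 31 genes and all lists were chosen with earlier results of these data known.

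Genes were filtered with filterByExpr (minimum count 10), scaled by TMM and tested in R 4.3.3 with edgeR 4.0.16 by the robust quasi-likelihood F test, with 1 term per group over all 16 libraries. A gene was called at a two-sided Benjamini-Hochberg adjusted p under 0.05, adjusted over all 13711 genes. The SE is the log2 fold change over the square root of F; 95% intervals used 12 residual degrees of freedom. Levels are TMM-scaled CPM. The steps of the plain fit were tested on simulated data first. That simulation held no pairing of libraries, and the changes put in were larger than any of the 30 genes showed in the plain fit. It therefore says nothing of the block fit or of how often differences this small are found. No 2 libraries held the same values.

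Whether the titles' replicate numbers pair the libraries was checked. Same-numbered libraries' deviations from their group means correlated at 0.63, 0.213, 0.297 and 0.398 in the UP arm, 0.364, 0.582, 0.545 and 0.298 in the DN arm, and 0.185, 0.107, 0.326 and 0.271 between the Mock groups. Each exceeded 0.1, so a block fit stands beside the plain one. For the Foxp3 comparisons each same-numbered pair within an arm was a block. For MockUP against MockDN the block was the replicate number. In both arms every Foxp3 library had a higher correlation with the same-numbered Mock library than with any other Mock library of that arm. In UP the highest other values were 0.044, 0.173, 0.22 and 0.364, so for Foxp3UP 2, 3 and 4 the margin was small. The reverse, each Mock library against all Foxp3 libraries of its arm, was not checked. Between the Mock groups 3 of 4 MockUP libraries correlated better with another number (0.594, 0.124 and 0.298). The pairing comes from the titles' numbers, and the labels do not say that a number marks a mouse.

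The genes named with values are a fixed set of 11 members and Foxp3, all called members, up to 3 called genes per list and direction with the smallest adjusted p, and 3 PERK genes. Hyou1, Pdia4, Dnajb11, Edem1, Edem2, Syvn1, Spcs2 and other members given in full were added after their values were seen. Alternatives were RLE and library-total scaling, no filter and a stricter filter, only the libraries compared, DESeq2 1.42.0, the block, each set of replicates alone and each library left out.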

Additional observations from a re-analysis of the deposited data

Results flagged for a closer look

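Within groups of 4 libraries, 11 of the 120 tested combinations of gene and group held 1 library set apart by a gap. Among independent groups, chance alone sets apart about 1 in 20. The 120 combinations share the same 16 libraries, and the share over all genes was not computed, so no excess can be read from this count. MockUP 2 was the library for 3 genes: Hyou1 at 105 CPM against 57.7 for the nearest library, Manf at 50.3 against 97.7, and Spcs2 at 175 against 266. In the DN arm, Foxp3DN 3 was high for Calr (736 CPM) and Sec61b (60.8), MockDN 3 for P4hb (712) and Sec61a1 (503), MockDN 4 for Sec61b (53.6), Foxp3DN 1 for Atf6 (78.8) and Foxp3DN 2 for Sdf2l1 (63.7). Foxp3UP 1 was high for Dnajb11 at 230 CPM, against 203 for the nearest library.

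Marker genes aside, 2 of the genes named here had a Foxp3 effect that differed between the arms by the test of the difference itself. For Foxp3 it was larger in the UP arm by 1.25 ± 0.24 on the log2 scale (edgeR adjusted p = 0.0144). For Hspa9 the difference was −0.59 ± 0.15 (adjusted p = 0.048). The same test called 251 of 13711 genes (1.83%), the marker Cd40lg among them. For Hspa5 and Pdia4 the 4 pairs of one arm all moved against the 4 pairs of the other. The difference of effects was −0.29 for Hspa5 (adjusted p = 0.463 in the plain fit, 0.0187 with the block) and 0.29 for Pdia4 (adjusted p = 0.421 and 0.0296).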

How the results depend on the processing

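The number of ER genes called in Foxp3UP against MockUP was 1, where 12.1% of all genes were called. It was 0 without a filter on low counts (4.2% of all genes) and 0 with only the libraries compared (5.05%). DESeq2 called 3, with Xbp1 and Edem2 higher and Hyou1 lower (14.9% of all genes), and the replicate block called 9 (25.3%). There were 2 within replicates 1 and 2 (9.92% of all genes) and 0 within replicates 3 and 4 (9.14%). Leaving out 1 library gave 0 to 3 (7.66% to 14.2% of all genes). The 3 came without MockUP 1 (Pdia3, Edem2 and Dnajb11, but not Xbp1), where 14.2% of all genes were called. The fits without Foxp3UP 2, 3 or 4 gave 0 (9.11%, 7.87% and 8.41% of all genes). The block without 1 UP pair gave 6 to 14 (18.3% to 30.3% of all genes). In the difference of effects the count was 0 (1.83% of all genes). It was 5 under the replicate block (12.7%) and 3 to 8 without 1 UP pair (9.53% to 22%). Beyond the calls given for the UP comparison and this difference, the block changed no other call of an ER gene. The Xbp1 call was kept with RLE scaling (adjusted p = 0.0347) and library totals (0.0356) and lost without the filter (0.0985) and with only the libraries compared (0.12). Ssr2, at 0 ± 0.16 in the plain fit, turned to −0.19 (adjusted p = 0.0335) in the block fit without pair 2. The causes were not tested. Library totals left the median of all genes within 0.04 of that under TMM. Depth limits Derl3, which had 1 to 10 counts per library.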
